A study of Mus musculus with 8 samples.

Results

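The enzymes and transporters described here are the 41 genes that carry glucose through glycolysis, in and out of glycogen, and through the pentose phosphate pathway, chosen by name from the 16536 genes of the count table. All 41 were present, and all 41 passed the filter on low counts that left 15421 genes to test. RNA was sequenced from mCherry+CD73+ cells sorted by FACS from the growth plates of 4 mice given DMSO, the vehicle, and 4 mice given SAG, a small-molecule agonist of Smoothened that activates Hh signaling. Every mouse, vehicle controls included, carried the Pthrp-mCherry reporter, whose mCherry labels cells expressing *Pthlh* (PTHrP), and CD73 is the product of *Nt5e*. Mice received SAG i.p. once daily at 25 μg/g, from day P30 to P36 by the results text and from P31 to P37 by the methods, and the mice were killed at P38. For each mouse, cells from 2 femoral growth plates went into 1 library. The sex of the mice was not given in the labels. The Y-linked gene *Ddx3y* was at 0.625 CPM in DMSO replicate 2, 1.44 CPM in SAG replicate 1, and 2.44 CPM in SAG replicate 3, and between 64.0 and 100.4 CPM in the other mice.

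Glycolysis splits a hexose into pyruvate, which lactate dehydrogenase turns into lactate. Several steps can be carried out by more than one isozyme, each with its own tissue range. Chondrocytes of the growth plate live in cartilage without blood vessels and rely heavily on glycolysis. Glucose 6-phosphate can also be stored as glycogen or enter the pentose phosphate pathway, whose oxidative arm makes NADPH. In neutrophils, NADPH feeds the phagocyte NADPH oxidase, and neutrophils also hold glycogen.

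Between 24971992 and 46593090 reads were counted on genes per library. Counts were scaled to a common depth with edgeR's TMM factors (CPM), so that 3 counts correspond to between 0.0670 and 0.114 CPM, a floor that covers counting error only. Levels of different genes were compared only after division by transcript length (CPM per kb). SAG was compared with DMSO by edgeR's quasi-likelihood test, with p-values adjusted over all 15421 genes by the Benjamini-Hochberg method, and a gene was called at an adjusted p under 0.05. *Pthlh* was detected at 18.5 CPM in DMSO-treated and 23.8 CPM in SAG-treated mice on average, and *Nt5e* at 228 and 159 CPM. Neither was called (adjusted p = 0.606 and 0.1855 by edgeR). The groups overlapped for *Pthlh*, and *Nt5e* was lower in every SAG-treated mouse. The paper reports a slight, significant decrease of *Pthlh* when scaled to GAPDH, unlike the TMM scaling used here. With TMM scaling the log2 fold change was 0.37 for *Pthlh* and 0.74 for *Gapdh*, a member that was called higher. A ratio of *Pthlh* to *Gapdh* is therefore lower with SAG although *Pthlh* itself was not. The sorted cells were not free of other cell types. The summed level of 12 neutrophil marker genes ranged from 4888 to 13761 CPM with DMSO and from 25612 to 40743 CPM with SAG. Of the 12, 9 were called higher, against 2.62% of all tested genes. The summed level of 10 chondrocyte markers ranged from 43520 to 96959 CPM with DMSO and from 16782 to 47461 CPM with SAG. Of the 10, 1 was called lower, *Col10a1*, whose groups overlapped, against 0.266% of all tested genes. All 10 had negative log2 fold changes, with a median of −1.03. Before adjustment all 10 had a p under 0.05 on the lower side by edgeR, against 6.5% of all tested genes. The summed level of the B-lineage markers ranged from 78.5 to 350 CPM with DMSO and from 17.5 to 38.1 CPM with SAG. No marker of these lists was at 0 in all libraries. In bulk RNA, fewer cells of a type and less RNA per cell cannot be told apart, and the part of cell composition in the results that follow was not tested.

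Of the 41 genes, 12 were called higher in SAG-treated mice and 0 lower, while 29 were not called. These 12 are 29.3% of the members, whereas 2.62% of all tested genes were called higher and 0.266% lower. Before adjustment edgeR had 15 members above and 1 below at a p under 0.05, against 9.58% and 6.5% of all tested genes. DESeq2's Wald test and limma voom each called 14 members higher and 0 lower, adding *Pgk1* and *Pkm* to the same 12, against backgrounds of 6.6% higher and 3.35% lower for DESeq2 and 6.45% higher and 2.58% lower for limma voom. In 17 members all SAG-treated mice were above all DMSO-treated mice, and in 0 members all were below, against 7.91% and 3.83% of all tested genes. The median log2 fold change of the members was 0.39, against −0.08 over all genes. Together the 41 genes took 0.458% ± 0.0312 (SD, n = 4) of the counts with DMSO and 0.806% ± 0.0708 (SD, n = 4) with SAG.

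**Figure D1:**
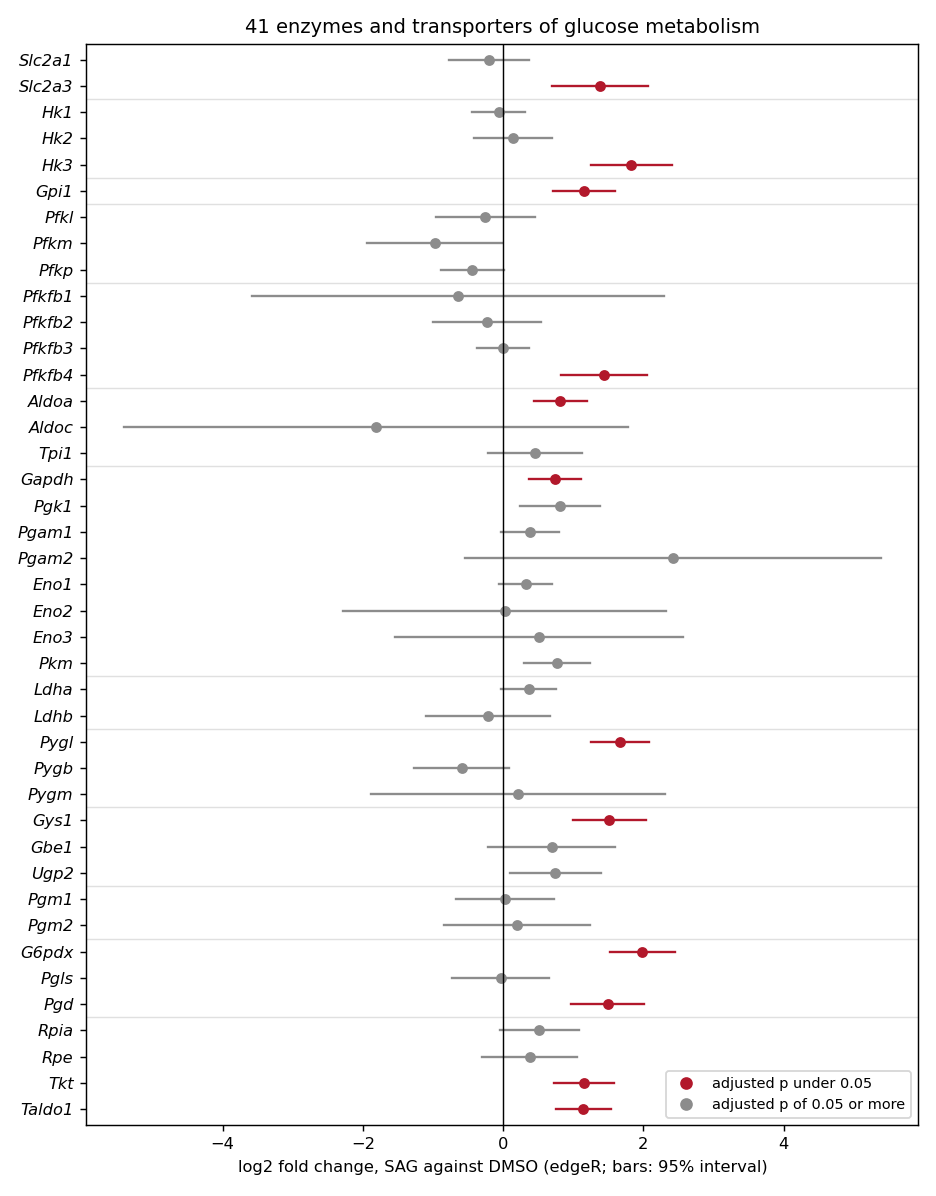
The log2 fold change of each of the 41 members (points) with its 95% interval (bars) from edgeR is plotted on the x axis, in the order of the pathway from top to bottom, with grey lines between the functional groups. The 12 members with an adjusted p under 0.05 (red) all lie above 0, and within the hexokinases, the PFKFB enzymes, and the glycogen phosphorylases a single isozyme is red.

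The number of members called depended on single mice, as did the number over all genes. Without DMSO replicate 2, 4 members were called, *Hk3*, *Pygl*, *Gys1*, and *G6pdx*, and the share of all tested genes called higher fell to 0.51%. Without DMSO replicate 3, or without SAG replicate 4, 6 were called, these 4 with *Pgd* and *Taldo1*, against 0.597% and 0.586% of all tested genes. *Hk3*, *Pygl*, *Gys1*, and *G6pdx* were called in all 16 alternative analyses, with adjusted p-values of at most 0.0454, 0.0454, 0.0483, and 0.0454.

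The entry of glucose into the cell and its first phosphorylation differed between isozymes. *Slc2a3* (GLUT3, a high-affinity glucose transporter; chromosome 6 of GRCm38, 122727809 to 122801640) was at 116, 132, 188, and 279 CPM in DMSO replicates 1 to 4 and at 292, 626, 407, and 534 CPM in SAG replicates 1 to 4. Every SAG-treated mouse was higher, with SAG replicate 1 close to DMSO replicate 4. The log2 fold change of *Slc2a3* was 1.38 ± 0.31 (SE), with an adjusted p of 0.0383 by edgeR, and the call was lost with plain library size, with DESeq2's size factors, and without DMSO replicates 1, 2, or 3 or SAG replicates 2, 3, or 4 (adjusted p up to 0.129). *Slc2a1* (GLUT1, the widely expressed transporter) was at 39.8, 61.4, 48.2, and 63.5 CPM with DMSO and 62.2, 33.4, 37.7, and 51.1 CPM with SAG, so that the groups overlapped. Its log2 fold change was −0.21 (95% interval −0.78 to 0.36). The share of *Slc2a3* in the summed CPM per kb of both transporters ranged from 63.4% to 77.9% with DMSO and from 79.0% to 93.8% with SAG.

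*Hk3* encodes hexokinase 3, an isozyme best known from myeloid cells (chromosome 13, 55005985 to 55021385). It was at 40.0, 70.3, 76.6, and 65.4 CPM with DMSO and 211, 307, 150, and 230.0 CPM with SAG. The lowest SAG-treated mouse was thus well above the highest DMSO-treated mouse. Its log2 fold change was 1.83 ± 0.27 (SE), with an adjusted p of 0.0102 by edgeR. *Hk1*, the broadly expressed hexokinase, was at 216, 186, 180.0, and 229 CPM with DMSO and at 158, 211, 199, and 207 CPM with SAG. These ranges overlapped, and the 95% interval of its log2 fold change was from −0.44 to 0.31. *Hk2*, which is inducible in many tissues, had a log2 fold change of 0.14 (95% interval −0.42 to 0.70). *Hk3* was 25.8% ± 5.92 (SD, n = 4) of the hexokinase level per kb in DMSO-treated mice and 54.5% ± 5.74 (SD, n = 4) with SAG, and it was the largest of the 3 shares in every SAG-treated mouse. The share of *Hk1* was 45.3% ± 8.004 (SD, n = 4) and 26.2% ± 5.13 (SD, n = 4), and the shares of all 3 isozymes did not overlap between the groups. Computed on CPM without division by length, the share of *Hk3* went from 16.1% to 39.7% and that of *Hk1* in SAG-treated mice was 35.3%. On that scale *Hk1* (199 CPM) was above *Hk3* (150 CPM) in SAG replicate 3. The differences between isozymes are descriptions and were not tested. Exons of *Hk3* overlap exons of *Unc5a* on the opposite strand, which was at 1.16 CPM with DMSO and 4.29 CPM with SAG (not called).

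To show how the isozymes differ in the sequence around their start, the windows from 250 bases before to 50 bases after the RefSeq start (GRCm38.p6, 5′ to 3′ in the direction of transcription) are given for *Hk3* and *Hk2*. Capitals mark matches on either strand to ACGTG, the core of the sites bound by hypoxia-inducible factors, and to GAGGAA, a core of sites bound by the myeloid factor PU.1, and no matches overlapped.
Hk3, chr13:55021336-55021635, minus strand: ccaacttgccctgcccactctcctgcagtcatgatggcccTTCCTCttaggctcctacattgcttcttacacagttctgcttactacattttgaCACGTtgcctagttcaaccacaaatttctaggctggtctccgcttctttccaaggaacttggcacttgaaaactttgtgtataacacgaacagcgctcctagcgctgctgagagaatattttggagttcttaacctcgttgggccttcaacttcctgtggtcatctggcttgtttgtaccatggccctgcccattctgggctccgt
Hk2, chr6:82774405-82774704, minus strand: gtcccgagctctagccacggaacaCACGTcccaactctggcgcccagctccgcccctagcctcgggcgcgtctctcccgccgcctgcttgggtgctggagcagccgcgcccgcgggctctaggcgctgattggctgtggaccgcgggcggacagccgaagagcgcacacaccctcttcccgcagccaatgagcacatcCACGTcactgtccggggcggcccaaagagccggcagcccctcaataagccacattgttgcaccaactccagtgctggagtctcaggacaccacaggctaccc
The *Hk3* window holds 1 ACGTG match, 1 GAGGAA match, and 7 CpG dinucleotides, and the *Hk2* window holds 2, 0, and 25.

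Phosphoglucose isomerase was the next step with a call. *Gpi1* (chromosome 7, 34201330 to 34230336), which interconverts glucose 6-phosphate and fructose 6-phosphate, was at 236, 272, 300.2, and 356 CPM with DMSO and 727, 754, 487, and 616 CPM with SAG. All SAG-treated mice were higher, and the log2 fold change was 1.15 ± 0.20 (SE), with an adjusted p of 0.0141 by edgeR. The annotation holds 1 near-identical copy of *Gpi1*, which leaves a part of its counts uncertain.

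None of the subunits of phosphofructokinase 1, the committing enzyme of glycolysis, was called. *Pfkl*, *Pfkm*, and *Pfkp*, the liver, muscle, and platelet subunits, had log2 fold changes of −0.26, −0.98, and −0.44. *Pfkm* was the single member with an unadjusted p under 0.05 on the lower side (edgeR, adjusted p = 0.299). *Pfkp*, with the highest level per kb of the 3, was at 122, 126, 121, and 89.3 CPM with DMSO and 108, 65.6, 82.1, and 82.3 CPM with SAG. Here SAG replicate 1 lay within the range of the DMSO-treated mice, and the 95% interval of the log2 fold change was from −0.88 to 0.01. The summed level of the 3 subunits was 47.4 ± 12.6 CPM per kb (SD, n = 4) with DMSO and 35.1 ± 5.85 CPM per kb (SD, n = 4) with SAG.

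The PFKFB enzymes make and break fructose 2,6-bisphosphate, an activator of phosphofructokinase 1. *Pfkfb4* (chromosome 9, 108991778 to 109032228) was at 48.3, 48.2, 78.5, and 80.2 CPM with DMSO and 125, 243, 126, and 197 CPM with SAG. The groups did not overlap, and its log2 fold change was 1.44 ± 0.28 (SE), with an adjusted p of 0.0208 by edgeR, which was lost without DMSO replicates 1, 2, or 3 or SAG replicates 2 or 4 (adjusted p up to 0.0785). *Pfkfb3*, the isozyme with the highest ratio of kinase to phosphatase activity, was at 126, 135, 115, and 107 CPM with DMSO and 107, 136, 118, and 119.8 CPM with SAG. These values overlapped almost fully, and its log2 fold change of −0.00 had a 95% interval from −0.37 to 0.36. *Pfkfb1* and *Pfkfb2* were low, at no more than 2.64 and 41.8 CPM in any mouse, and were not called. *Pfkfb4* was 39.1% ± 7.49 (SD, n = 4) of the family's level per kb in DMSO-treated and 63.7% ± 6.84 (SD, n = 4) with SAG, while *Pfkfb3* was 48.0% ± 9.24 (SD, n = 4) and 29.3% ± 4.28 (SD, n = 4). Without division by length the share of *Pfkfb4* went from 29.7% to 53.5%.

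**Figure D2:**
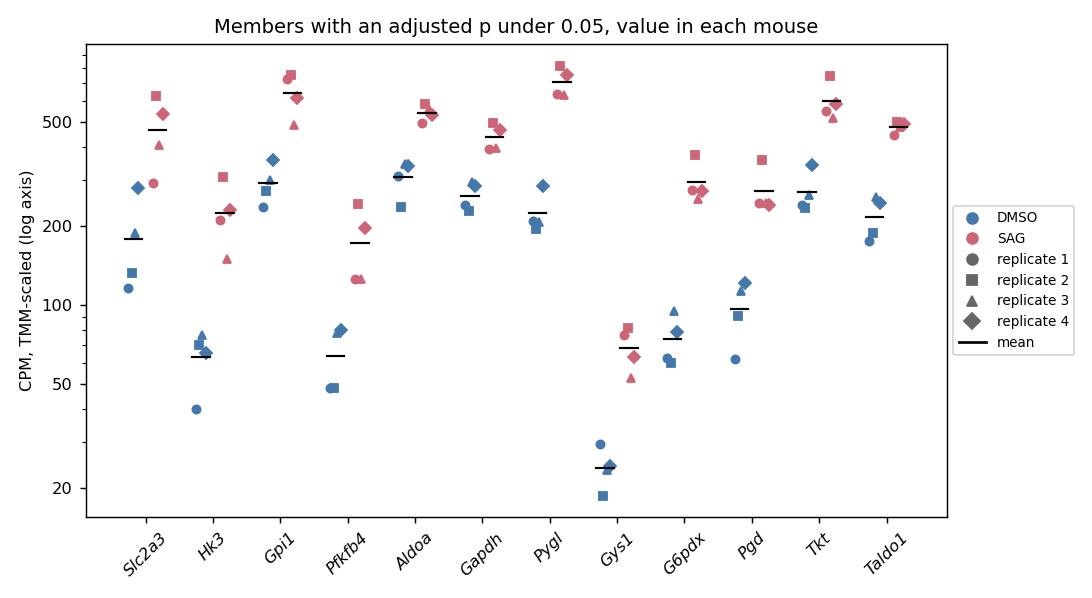
CPM (TMM-scaled, log axis) of the 12 called members is plotted for each DMSO-treated (blue) and SAG-treated (red) mouse, with a symbol for each replicate number and a black line at the group mean. In all 12 genes the 4 SAG-treated mice lie above the 4 DMSO-treated mice, with the narrowest gap in *Slc2a3*.

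Aldolase and glyceraldehyde-3-phosphate dehydrogenase were called at smaller fold changes than the steps above. *Aldoa* (chromosome 7, 126795234 to 126800751), which splits fructose 1,6-bisphosphate, was at 309.8, 237, 345, and 338 CPM with DMSO and 493, 582, 557, and 529.6 CPM with SAG. Its log2 fold change was 0.81 ± 0.17 (SE), with an adjusted p of 0.0300 by edgeR, and the call was lost without DMSO replicates 1, 2, or 3 or SAG replicates 2, 3, or 4. *Gapdh* (chromosome 6, 125161715 to 125166467), which makes the first NADH of glycolysis and often serves as a reference gene, was at 240.5, 227, 295, and 283 CPM with DMSO and 392, 495, 395, and 464 CPM with SAG. Both groups were tight and apart, with a log2 fold change of 0.74 ± 0.17 (SE) and an adjusted p of 0.0403 by edgeR, which was lost in 11 of 16 alternatives and, when 1 mouse was left out, kept only without DMSO replicate 4. The annotation holds 73 near-identical copies of *Gapdh* (at least 500 bases at 95% identity), so that its counts are uncertain. *Aldoc*, the aldolase best known from brain, was at no more than 4.06 CPM in any mouse, and *Aldoa* made up at least 98.7% of the aldolase level per kb in every mouse. *Tpi1*, triose phosphate isomerase, was at 81.3, 71.9, 52.5, and 28.8 CPM with DMSO and 100.4, 56.2, 81.7, and 82.4 CPM with SAG, with overlapping groups and an adjusted p of 0.540 by edgeR.

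In lower glycolysis *Gapdh* was the only call among 8 genes, against 2.62% of all tested genes called higher. All 8 had positive log2 fold changes, as did 6964 of the 15421 tested genes. That of *Eno2* was only 0.02 and changed sign in 6 of 14 alternatives. *Pkm*, pyruvate kinase of muscle and most other tissues, was at 621, 369, 584, and 364 CPM with DMSO and 801, 896, 762, and 833 CPM with SAG. The groups did not overlap, and its log2 fold change was 0.76 ± 0.21 (SE), with an adjusted p of 0.0836 by edgeR and of 0.0168 by DESeq2. *Pgk1*, phosphoglycerate kinase, was at 99.3, 103, 136, and 50.5 CPM with DMSO and 172, 157, 177, and 176 CPM with SAG, likewise without overlap. Its log2 fold change was 0.81 ± 0.26 (SE), with an adjusted p of 0.128 by edgeR and of 0.0491 by DESeq2. *Eno1*, the main enolase and the member with the highest level per kb in DMSO-treated mice, was at 585, 506, 601, and 424 CPM with DMSO and 711, 593, 638, and 701 CPM with SAG. Its groups overlapped, with a 95% interval of the log2 fold change from −0.06 to 0.70. *Pgam1*, the main phosphoglycerate mutase, had a log2 fold change of 0.39 (95% interval −0.02 to 0.79). *Pgam2*, *Eno2*, and *Eno3*, isozymes of muscle and nerve, were at no more than 5.90, 6.32, and 4.48 CPM in any mouse, and the log2 fold change of 2.42 of *Pgam2* had a 95% interval from −0.54 to 5.38. Near-identical copies in the annotation (3 for *Eno1*, 2 for *Pgk1*, 1 each for *Pgam1* and *Pkm*) leave a part of these counts uncertain.

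Lactate dehydrogenase, at the end of anaerobic glycolysis, was not called in either subunit. *Ldha* was at 189, 202, 216, and 135 CPM with DMSO and 243, 227, 243, and 244 CPM with SAG. Every SAG-treated mouse was higher, but the log2 fold change was 0.37 (95% interval −0.02 to 0.76) and the adjusted p 0.350 by edgeR. *Ldhb*, the subunit of heart, had a log2 fold change of −0.22 (95% interval −1.11 to 0.66), and *Ldha* was between 70.3% and 92.2% of the summed level per kb over all mice. Near-identical copies (2 for *Ldha*, 1 for *Ldhb*) make these counts uncertain too.

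Both directions of glycogen metabolism held a call. *Pygl*, glycogen phosphorylase of liver and leukocytes (chromosome 12, 70190811 to 70231488), releases glucose 1-phosphate from glycogen and was at 209.7, 195, 208, and 285 CPM with DMSO and 638, 819, 632, and 755 CPM with SAG. No SAG-treated mouse came near the highest DMSO-treated mouse, and the log2 fold change was 1.66 ± 0.19 (SE), with an adjusted p of 0.00853 by edgeR. *Pygb*, the brain isozyme, was at 91.3, 55.6, 58.3, and 46.3 CPM with DMSO and 37.04, 40.1, 64.1, and 25.4 CPM with SAG. Its values went the other way without reaching the threshold, with overlapping groups, a log2 fold change of −0.59 (95% interval −1.27 to 0.09), and an adjusted p of 0.396 by edgeR. *Pygm*, the muscle isozyme, was at no more than 6.01 CPM. *Pygl* made up 79.5% ± 6.55 (SD, n = 4) of the phosphorylase level per kb in DMSO-treated and 94.6% ± 2.44 (SD, n = 4) with SAG, and *Pygb* 19.3% ± 5.94 (SD, n = 4) and 4.85% ± 2.18 (SD, n = 4). The summed phosphorylase level, 84.2 ± 10.6 CPM per kb with DMSO and 224.5 ± 25.3 CPM per kb with SAG (SD, n = 4), differed by a ratio of 2.67, the largest among the 10 isozyme families.

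*Gys1*, the glycogen synthase of most tissues outside the liver (chromosome 7, 45434844 to 45456619), was at 29.4, 18.7, 23.4, and 24.3 CPM with DMSO and 76.6, 81.4, 52.5, and 63.4 CPM with SAG. The groups were far apart, with a log2 fold change of 1.51 ± 0.24 (SE) and an adjusted p of 0.0108 by edgeR. Its exons overlap *Ruvbl2* on the opposite strand, which was at 40.4 CPM with DMSO and 36.7 CPM with SAG. *Ugp2*, which makes UDP-glucose, was at 54.6, 31.9, 49.1, and 19.99 CPM with DMSO and 74.5, 60.9, 64.4, and 61.0 CPM with SAG. These groups did not overlap either, but the adjusted p was 0.240 by edgeR at a log2 fold change of 0.74. *Gbe1*, the branching enzyme, had a log2 fold change of 0.70 (95% interval −0.21 to 1.60). The phosphoglucomutases, which link glycogen to glycolysis, had log2 fold changes of 0.03 for *Pgm1* and 0.20 for *Pgm2*. The gene called *Pgm2* here was at 17.97, 13.7, 9.42, and 52.6 CPM with DMSO and 30.7, 22.7, 22.4, and 31.7 CPM with SAG, with DMSO replicate 4 the highest of all. The symbols *Pgm1* and *Pgm2* have been exchanged between releases of the mouse nomenclature, and they are used here as the count table gives them.

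**Figure D3:**
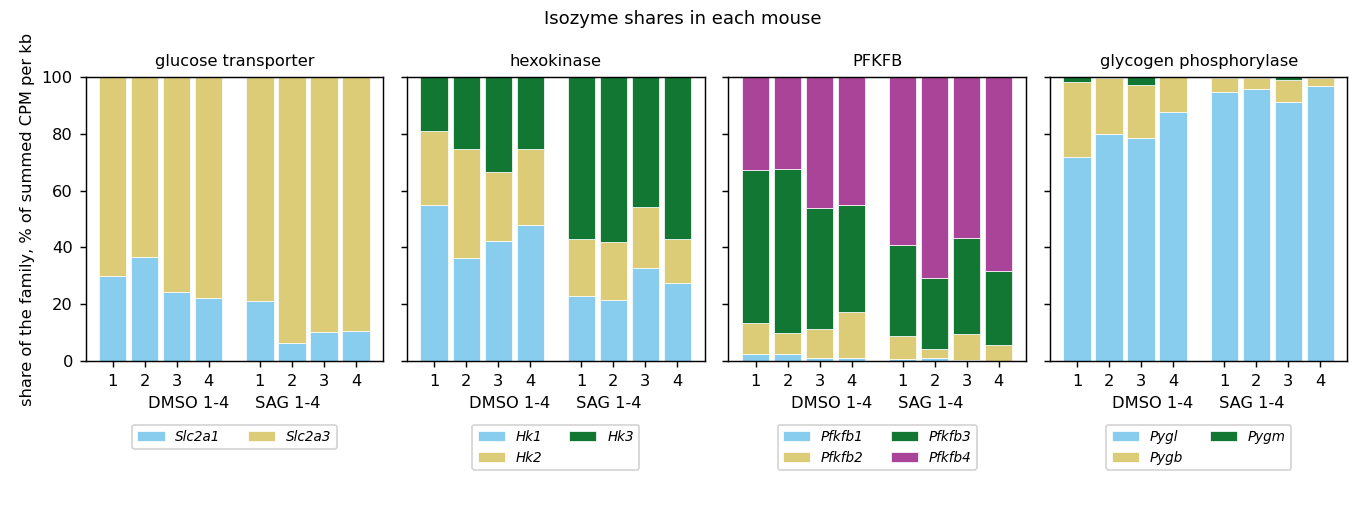
Each bar is 1 mouse and shows, in percent, how the summed CPM per kb of a family was divided among its isozymes, for the glucose transporters, hexokinases, PFKFB enzymes, and glycogen phosphorylases. *Slc2a3*, *Hk3*, *Pfkfb4*, and *Pygl* take a larger share in each SAG-treated mouse than in any DMSO-treated mouse, and the hexokinase share of *Hk3* lies between 19.0% and 33.4% with DMSO and between 45.9% and 58.1% with SAG.

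The windows around the RefSeq starts of *Pygl*, which was called, and *Pygb*, which was not, are given in the same way (GRCm38.p6, capitals for matches to ACGTG or GAGGAA on either strand).
Pygl, chr12:70227634-70227933, minus strand: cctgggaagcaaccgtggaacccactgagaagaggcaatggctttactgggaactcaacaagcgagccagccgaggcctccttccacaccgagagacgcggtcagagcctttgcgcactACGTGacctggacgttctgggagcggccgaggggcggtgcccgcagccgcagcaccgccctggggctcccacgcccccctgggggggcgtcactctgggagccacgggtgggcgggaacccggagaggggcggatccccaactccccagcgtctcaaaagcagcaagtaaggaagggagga
Pygb, chr2:150786546-150786845, plus strand: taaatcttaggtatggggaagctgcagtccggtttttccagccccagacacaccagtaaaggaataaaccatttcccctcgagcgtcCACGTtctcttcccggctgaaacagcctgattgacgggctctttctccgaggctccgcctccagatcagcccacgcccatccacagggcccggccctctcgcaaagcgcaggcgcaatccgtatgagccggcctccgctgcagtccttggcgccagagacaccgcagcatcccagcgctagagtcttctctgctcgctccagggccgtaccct
Both windows hold 1 ACGTG match and 0 GAGGAA matches, with 22 CpG dinucleotides for *Pygl* and 21 for *Pygb*.

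In the pentose phosphate pathway 4 of the 7 members were called higher, against 2.62% of all tested genes. *G6pdx* (X chromosome, 74409483 to 74429194) encodes glucose-6-phosphate dehydrogenase, the rate-limiting enzyme of the pathway and its first source of NADPH. It was at 62.7, 59.9, 94.4, and 79.1 CPM with DMSO and 274, 373, 254, and 273 CPM with SAG. The groups were far apart, and its log2 fold change of 1.99 ± 0.21 (SE; a ratio of means of 3.96), with an adjusted p of 0.00853 by edgeR, was the largest among the 12 called members. With the level of *Ddx3y* as a covariate the log2 fold change of this X-linked gene was 2.04, with an adjusted p of 0.0046 by edgeR. *Ikbkg*, whose exons overlap it on the opposite strand, was at 19.6 CPM with DMSO and 27.4 CPM with SAG and was not called. The start of *G6pdx* is shown with the same marks because it changed most.
G6pdx, chrX:74428831-74429130, minus strand: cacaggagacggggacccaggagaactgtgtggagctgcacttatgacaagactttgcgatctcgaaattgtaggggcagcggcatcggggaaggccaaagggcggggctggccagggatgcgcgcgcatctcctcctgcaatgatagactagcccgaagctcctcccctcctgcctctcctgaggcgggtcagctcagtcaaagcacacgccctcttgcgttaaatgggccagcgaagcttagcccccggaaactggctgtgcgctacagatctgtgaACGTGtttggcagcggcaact

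*Pgd* (chromosome 4, 149149991 to 149166771), 6-phosphogluconate dehydrogenase and the other NADPH-making step, was at 62.3, 90.8, 113, and 121 CPM with DMSO and 244, 357, 244, and 239.5 CPM with SAG. Again no mouse of one group reached the other, and the log2 fold change was 1.49 ± 0.24 (SE), with an adjusted p of 0.0112 by edgeR. This call was lost without DMSO replicate 2 (adjusted p = 0.0533 by edgeR). *Pgls*, the lactonase between these dehydrogenases, was at 25.8, 20.9, 31.5, and 12.8 CPM with DMSO and 19.6, 22.2, 21.5, and 25.5 CPM with SAG. Its groups overlapped, and its log2 fold change was −0.03 (95% interval −0.73 to 0.66).

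In the non-oxidative arm, which returns pentoses to glycolysis, both of the enzymes that move carbon units between sugars were called. *Tkt*, transketolase (chromosome 14, 30548359 to 30574720), was at 240.3, 234, 264, and 341 CPM with DMSO and 550.0, 749, 515, and 582 CPM with SAG. *Taldo1*, transaldolase (chromosome 7, 141392199 to 141402968), was at 176, 188, 257, and 244 CPM with DMSO and 443, 499.7, 477, and 491 CPM with SAG. For both genes the groups were apart, and the SAG-treated mice were closest to each other in *Taldo1*. The log2 fold changes were 1.15 ± 0.19 (SE; adjusted p = 0.0132 by edgeR) for *Tkt* and 1.14 ± 0.18 (SE; adjusted p = 0.0108 by edgeR) for *Taldo1*. The call of *Tkt* was lost without DMSO replicates 2 or 3 or SAG replicate 4, and that of *Taldo1* without DMSO replicate 2. *Taldo1* had the highest mean level per kb of the 41 members in SAG-treated mice, 350 CPM per kb, and stood second with DMSO, at 159 CPM per kb. *Rpia*, the ribose 5-phosphate isomerase, was at 31.3, 49.0, 56.8, and 45.6 CPM with DMSO and 83.1, 76.3, 54.7, and 47.3 CPM with SAG, with overlap, and *Rpe*, the epimerase, had a log2 fold change of 0.38. Neither was called (adjusted p = 0.369 and 0.630 by edgeR).

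Other genes of glucose metabolism were counted from lists of 107 genes, 102 of them in the table and 100 tested. Of these, 11 were called higher and 0 lower by edgeR, against 2.62% and 0.266% of all tested genes, and 19 were higher and 5 lower before adjustment (p under 0.05), against 9.58% and 6.5%. Without the 5 genes of the phagocyte NADPH oxidase, 6 of 95 were called higher, with a median log2 fold change of 0.04. DESeq2 called 2 lower and limma voom 1. Without DMSO replicate 2, DMSO replicate 3, or SAG replicate 4, 1 of the 100 was called higher. This is near the 0.51%, 0.597%, and 0.586% of all tested genes in the same fits. Without DMSO replicate 1 there were 6, without SAG replicate 2 there were 4, and without SAG replicate 3 there were 7. The shares of all tested genes called higher in those 3 fits were 1.19%, 0.88%, and 1.43%. The median log2 fold change over the 100 was 0.07. All 5 genes of the phagocyte NADPH oxidase were called, among them *Ncf4*, a cytosolic subunit, with a log2 fold change of 1.69. The others were *Slc16a3* (MCT4, a lactate exporter), *Slc2a6* (a sugar transporter of lysosomes), *Adpgk* (an ADP-dependent glucokinase), *Ppp1r3b* (a glycogen-targeting subunit of protein phosphatase 1), *Gsr* (glutathione reductase, which uses NADPH), and *Nadk* (NAD kinase, which makes NADP). Of these 11, *Adpgk* had the largest log2 fold change, with 247, 193, 341, and 595 CPM with DMSO and 808, 1800, 1067, and 1312 CPM with SAG, no overlap, and a log2 fold change of 1.86 ± 0.36 (SE; adjusted p = 0.0197 by edgeR). This call was lost without DMSO replicates 1, 2, or 3 or SAG replicates 2 or 4 (adjusted p up to 0.0941). *Slc16a3* was at 80.5, 97.8, 118, and 134 CPM with DMSO and 187, 303, 317, and 364 CPM with SAG, likewise without overlap, and its log2 fold change was 1.44 ± 0.24 (SE; adjusted p = 0.0130 by edgeR), a call that was lost without DMSO replicates 2 or 3 or SAG replicate 4 (adjusted p up to 0.0569).

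The lists of the TCA cycle, pyruvate entry, and regulators held no call by edgeR, which in lists of this size is near the background of 2.62%. Of the 17 genes of the TCA cycle 0 were called, 2 were higher and 1 lower before adjustment, near the 9.58% and 6.5% of all tested genes, and the median log2 fold change was 0.01. *Mdh2*, mitochondrial malate dehydrogenase, had the smallest p among them, with 115, 127, 150, and 168 CPM with DMSO and 215, 247, 219, and 221 CPM with SAG. These groups did not overlap, and its log2 fold change was 0.69 ± 0.17 (SE), with an adjusted p of 0.0602 by edgeR and of 0.0155 by DESeq2. Of the 14 genes for the entry of pyruvate into mitochondria and of the 12 regulators, such as *Hif1a* and *Myc*, 0 were called and 0 had an unadjusted p under 0.05 in either direction by edgeR, and *Mpc2* and *Prkaa1* had the smallest p (adjusted p = 0.333 and 0.352). Whether the members differ from these lists was not tested.

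**Figure D4:**
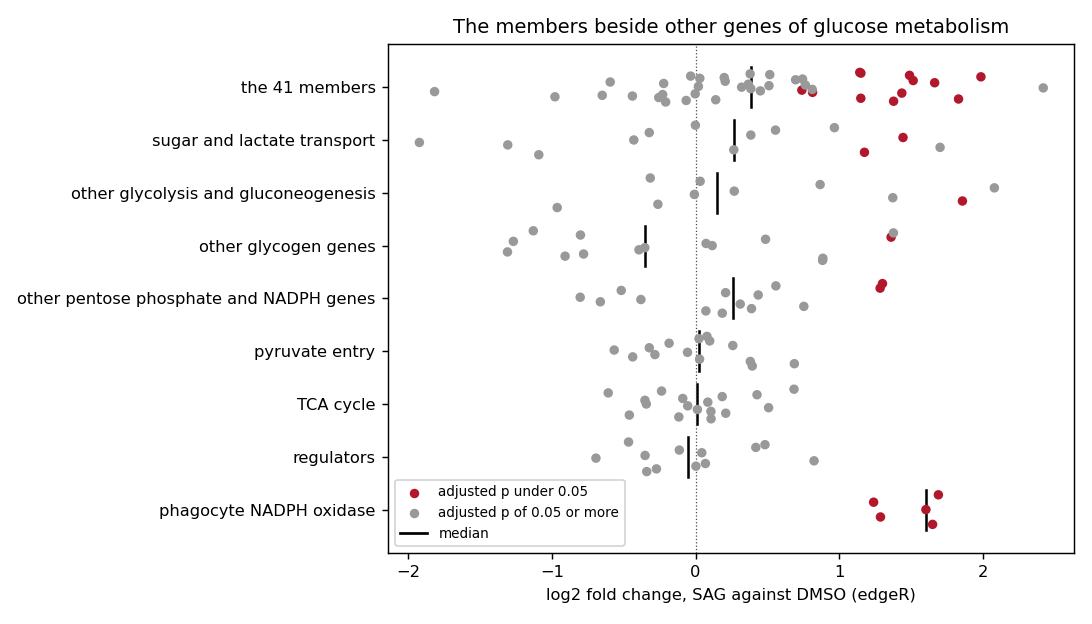
The log2 fold change of each tested gene (points) is plotted for the 41 members and for 8 lists of other genes of glucose metabolism, with a black line at each list's median. Called genes (red) appear among the members, the transport, glycolysis, glycogen, and NADPH lists, and in all 5 oxidase genes, and none appear in the lists of pyruvate entry, the TCA cycle, and regulators.

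Across all promoters, ACGTG was found in the window of 21.8% of 27018 genes, and among the 40 members with a window (*Slc2a3* had none) it was found in 21, of which 5 were called and 16 were not. GAGGAA was found in 31.3% of all genes and in 11 of the 40, of which 3 were called (*Hk3*, *Aldoa*, and *Gys1*). TTGCNNAA, a pattern of sites bound by C/EBP factors, was found in 12.2% of all genes and in 6 of the 40, none of them among the 11 called members with a window. ACGTG itself holds a CpG, and the windows of called and of other members had the same median of 20 CpG dinucleotides, against 8 over all genes.

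The called members were selected as higher with SAG, and the summed neutrophil markers were also higher in every SAG-treated mouse. Their agreement over the groups is therefore no separate result. The summed neutrophil markers were at 5831, 4888, 9634, and 13761 CPM in DMSO replicates 1 to 4 and at 25612, 40743, 28195, and 36730 CPM in SAG replicates 1 to 4. Within the SAG-treated mice, SAG replicate 2 had the highest level of these markers and of all 12 called members, and the lowest level of the chondrocyte markers, 16782 CPM. SAG replicate 1, with the lowest neutrophil markers of that group, was also its lowest mouse for *Slc2a3*, *Pfkfb4*, *Aldoa*, *Gapdh*, and *Taldo1*. It was not the lowest for *Hk3*, *Gpi1*, *Pygl*, *Gys1*, *G6pdx*, *Pgd*, or *Tkt*. Within the DMSO-treated mice, DMSO replicate 4 had the most neutrophil markers and the highest *Slc2a3*, *Gpi1*, *Pfkfb4*, *Pygl*, *Pgd*, and *Tkt*, while *Hk3*, *Aldoa*, *Gapdh*, *G6pdx*, and *Taldo1* were highest in DMSO replicate 3 and *Gys1* in DMSO replicate 1. The markers' part in the differences of the members was not tested.

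**Figure D5:**
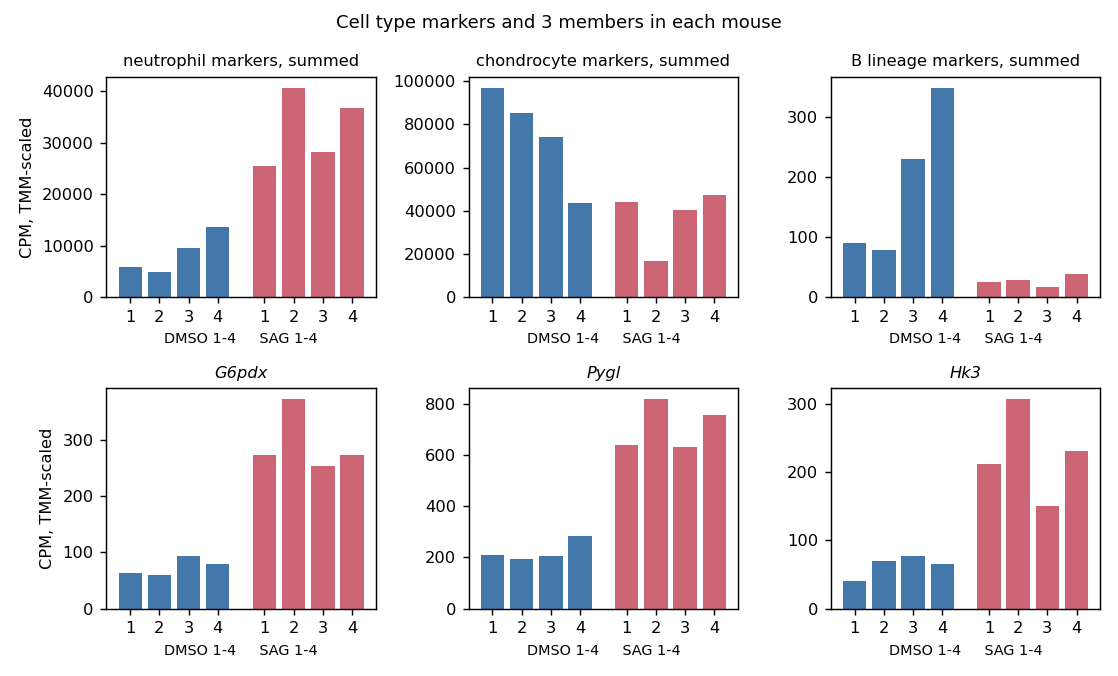
Bars give TMM-scaled CPM in each mouse, 4 DMSO-treated (blue) and 4 SAG-treated (red), for the summed markers of neutrophils, chondrocytes, and the B lineage (top) and for *G6pdx*, *Pygl*, and *Hk3* (bottom). The neutrophil sum and the 3 members are higher in each SAG-treated mouse than in any DMSO-treated mouse, and SAG replicate 2 is the highest in all 4.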

How the data were processed

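Total RNA of sorted mCherry+CD73+ cells from 4 DMSO-treated and 4 SAG-treated mice was sequenced with a stranded kit for picogram inputs. The authors deposited 1 table with raw, unnormalized counts of each gene in each library. Their processing notes name kallisto, DESeq2, and GRCm38 without a role, and the table holds whole numbers. How transcript estimates became gene counts is not given in the sources used here. All 8 libraries were matched to their labels.

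The main comparison used edgeR 4.0.16 in R 4.3.3 (filterByExpr, TMM, robust quasi-likelihood test, Benjamini-Hochberg adjustment over 15421 genes, threshold 0.05) and, as alternatives, DESeq2 1.42.0 and limma 3.58.1. Figures and tables used pandas 2.3.3 and numpy 2.4.6. CPM used TMM factors, and CPM per kb used the merged exon length in GENCODE M21 (GRCm38), which held 16524 of the 16536 symbols. Isozyme shares carry no test. The common dispersion was 0.466. On data simulated from these libraries with 200 changed genes, edgeR recovered 0% at a 2-fold, 62% at a 4-fold, and 81.5% at an 8-fold change over 15421 genes, with 0, 10, and 6 false calls. DESeq2 recovered 23%, 79.5%, and 93.5%, with 33, 88, and 72 false calls.

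The members and the lists were chosen with earlier results of these data known. All members were named, and values in every mouse were given for called members and for the further member of each group with the highest level per kb. *Pkm*, *Pgk1*, and *Mdh2* are shown in full because their groups did not overlap. Of the other pathway genes, those called and the 1 with the smallest p in a list without calls were named. The values of 1 called gene are not reported here. Each library is 1 mouse, so p-values measure the spread between mice. No 2 libraries agreed within sampling noise. Alternatives were other scalings, filters, and tools, a replicate block, *Ddx3y* as a covariate, shares without length, and each mouse left out in turn.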

Additional observations from a re-analysis of the deposited data

Results flagged for a closer look

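Within groups of 4 mice, 1 mouse stood apart from the other 3 (Dixon's 95% test) in 11 of 182 groups examined, where chance gives about 1 in 20, or 9.1. SAG replicate 2 was the highest for *G6pdx* (373 CPM, next 274), *Pgd* (357, next 244), *Cyba* (202, next 151), and *Mdh2* (247, next 221), and the lowest for *Ldha* (227, next 243). DMSO replicate 4 was the highest for *Pygl* (285 CPM, next 209.7) and *Mpc2* (51.0, next 27.99) and the lowest for *Pfkp* (89.3, next 121). Among the isozyme shares, *Hk2* stood apart in DMSO replicate 2 (38.4% of the hexokinase level, next 26.5%), *Hk3* in SAG replicate 3 (45.9%, next 56.9%), and *Pygm* in SAG replicate 3 (0.928% of the phosphorylase level, next 0.415%).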

How the results depend on the processing

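Counts of calls rested on single mice. In the simulated data, where the changed genes were drawn at random, edgeR recovered 0% at a 2-fold change. In the data *Gapdh* and *Aldoa* were called at log2 fold changes of 0.74 and 0.81, below a 2-fold change. Their calls were lost in 11 and 7 of 16 alternatives. The simulation changed 200 genes, while 404 were called higher and 41 lower in the data, so its recovery cannot be carried over to single genes. With 1 mouse left out in turn, the members called higher were between 4 and 13 and the members called lower 0, the other pathway genes called higher between 1 and 14, and over all genes between 80 and 1017 were higher and between 4 and 343 lower. Over all genes, 812 were higher and 413 lower with DESeq2 and 995 and 398 with limma voom, 87 were lower with at least 10 counts in every sample and 18 with the replicate block, against 404 and 41. DESeq2 called 2 of the other pathway genes lower (*Gaa* and *Slc2a10*) and limma voom 1 (*Gaa*). The labels name no pairing of mice by replicate number. Same-numbered mice had correlations of their deviations of 0.120, 0.0219, 0.0195, and 0.0102. Those of differently numbered mice were not computed, so these values cannot decide whether the numbers pair the mice. The replicate block called 10 members (*Aldoa* and *Gapdh* lost) and 11 other pathway genes, and it moved the median log2 fold change of all genes by 0.10. Of the 29 members not called, 11 changed sign under at least 1 alternative. With 1 mouse left out, log2 fold changes were between −0.14 and 0.028 for *Hk1*, −0.050 and 0.40 for *Hk2*, −0.47 and 0.0049 for *Pfkl*, −0.41 and 0.12 for *Pfkfb2*, −0.066 and 0.058 for *Pfkfb3*, −0.53 and 0.72 for *Eno2*, −0.41 and 0.17 for *Ldhb*, −0.19 and 0.92 for *Pygm*, −0.083 and 0.21 for *Pgm1*, −0.10 and 1.00 for *Pgm2*, and −0.20 and 0.15 for *Pgls*. With limma voom they were 0.00323 for *Hk1*, 0.10 for *Pfkfb2*, and −0.24 for *Eno2*, with plain library size −0.00917 for *Eno2* and −0.0252 for *Pgm1*, with at least 10 counts 0.00107 for *Pfkfb3*, with the replicate block 0.029 for *Pgls*, and with *Ddx3y* −0.054 for *Eno2*. The cause was not tested.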
